A study of Caenorhabditis elegans with 2 samples.

Results

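Chromatin immunoprecipitation followed by sequencing (ChIP-seq) of GFP-tagged PAX-3 in Caenorhabditis elegans placed 346 peaks on the autosomes at promoters that belong to more than 1 gene. These 346 were chosen from the 2139 peaks that the authors kept after thresholding by irreproducible discovery rate (IDR), of which 1784 lay on chromosomes I to V. A peak was included when its summit fell in the promoter windows of 2 or more protein-coding genes, that is, from 1000 bp before to 200 bp after the annotated start of each gene. Within the IDR list the choice used positions only and not the peak signal. The IDR list itself equals the 2139 pooled peaks of highest signal. Of the 947 autosomal IDR summits in any promoter window, 346 were in shared windows and 601 in the window of 1 gene, and 837 further autosomal summits lay outside all windows. The 346 peaks touched 698 of 17242 autosomal protein-coding genes, or 4.05%. A further 9 peaks in shared windows lay on X and were not included.

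All larvae were of strain OP190, which carries the unc-119(ed3) mutation on chromosome III and the transgene wgIs190, and stably expresses PAX-3 with a GFP-FLAG tag at its C-terminus. They were starved L1 larvae (the first larval stage) synchronised by bleaching, of both sexes pooled, aged 6 h, and were processed as whole animals in 2 biological replicates. Chromatin was sheared by sonication to a size range of 200 to 800 bp. The description says that the immunoprecipitation used an anti-GFP antibody, although the antibody label reads pax-3. The tagged protein came from a transgene, and whole larvae do not show which cells held a bound site. There was no second condition, so the values below are descriptions of 1 group, without tests. Peaks are not replicates, and sequencing depth is unknown.

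PAX-3 belongs to the Pax family of transcription factors, which bind DNA through a paired domain and, in this subfamily, also through a homeodomain; in C. elegans pax-3 is known for its role in the fate of ventral epidermal cells. In a head-to-head pair the genes point away from each other, so that 1 stretch of DNA lies upstream of both. C. elegans also has operons, in which neighbouring genes on the same strand are transcribed from the promoter of the first gene. Many of its transcripts are trans-spliced, which removes the original 5′ end, so an annotated gene start can lie downstream of the true transcription start.

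The sequences under the strongest shared promoter peaks are given first, because the class is defined by DNA that serves more than 1 gene. Each runs from 50 bp before to 50 bp after the summit, on the plus strand, from the RefSeq copy of WBcel235 (the build also called ce11). They were taken in order of signal among summits whose window holds no annotated untranslated base, and sequence from 1 chromosome is not shown. Capitals mark matches on either strand: the repeat GAGAGA in tasp-1 and sec-61.G, the word CTGCGTCTC overlapping it in sec-61.G, the GC-rich word GGGCGG in rps-28, and the 8-base word GCGCTCCA in rpl-20 and fib-1. The first 6 come from head-to-head promoters and the others from same-strand promoters.
K01G5.10/tasp-1 summit, chrIII:10759202-10759302: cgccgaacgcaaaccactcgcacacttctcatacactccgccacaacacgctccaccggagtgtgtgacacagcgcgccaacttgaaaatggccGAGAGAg
rpl-20/Y17G9B.5 summit, chrIV:4750025-4750125: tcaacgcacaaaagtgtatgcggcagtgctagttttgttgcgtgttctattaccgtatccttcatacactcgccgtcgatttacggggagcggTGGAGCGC
nhl-2/tag-340 summit, chrIII:4899884-4899984: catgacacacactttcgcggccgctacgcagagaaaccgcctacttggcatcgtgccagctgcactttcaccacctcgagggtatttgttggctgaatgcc
rpl-15/K11H12.8 summit, chrIV:654876-654976: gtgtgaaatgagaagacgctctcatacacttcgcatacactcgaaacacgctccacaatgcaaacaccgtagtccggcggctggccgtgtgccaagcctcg
fib-1/mut-15 summit, chrV:15002283-15002383: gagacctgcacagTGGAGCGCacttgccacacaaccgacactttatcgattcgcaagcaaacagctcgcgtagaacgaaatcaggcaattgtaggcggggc
Y22D7AL.10/hsp-60 summit, chrIII:1619083-1619183: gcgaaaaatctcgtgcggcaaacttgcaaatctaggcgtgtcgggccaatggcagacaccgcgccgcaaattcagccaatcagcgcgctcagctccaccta
F32D8.13/sec-61.G summit, chrV:10897326-10897426: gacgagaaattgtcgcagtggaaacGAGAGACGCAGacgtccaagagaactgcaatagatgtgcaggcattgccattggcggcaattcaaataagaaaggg
rps-28/Y41D4B.4 summit, chrIV:1659192-1659292: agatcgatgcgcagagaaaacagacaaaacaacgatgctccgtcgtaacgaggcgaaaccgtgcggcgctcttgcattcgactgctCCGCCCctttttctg
The tasp-1, nhl-2 and hsp-60 summits were rich in G and C, at 58.4%, 56.4% and 57.4% of these bases, and the sec-61.G summit had 48.5%. The mean of the members was 46.3% ± 8.46 (SD, n = 346 peaks), against 44.3% ± 9.13 at summits in single-gene promoters (SD, n = 601 peaks) and 33.8% ± 8.27 in windows of the same length centred 150 bp upstream of every autosomal gene start (SD, n = 17242).

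Shared windows held summits out of proportion to their length. They covered 2.21 Mb, or 12.005% of all promoter-window sequence on the autosomes, and took 36.5% of the promoter summits (346 of 947, Wilson 95% interval 33.5 to 39.7%, which covers counting error only). Single-gene windows covered 16.19 Mb. The density was 157 summits per Mb in shared windows, against 37.1 per Mb in single-gene windows and 13.0 per Mb outside windows. The ratio of shared to single-gene windows was 4.22. Taken alone, the 2139 highest peaks of each replicate gave 36.3% shared and a ratio of 4.18 in replicate 1, and 37.5% shared and a ratio of 4.403 in replicate 2. The ratio depended on the window: it was 5.34 with windows of 500 bp upstream and 3.21 with 2000 bp upstream.

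The share was highest among the stronger peaks. Among the 100 pooled peaks of highest signal, 45.1% of the promoter summits were shared. The share was 47.5% beyond them up to rank 500 and 42.7% from there up to rank 1000. It was 25.4% in the rest of the IDR list, 19.9% beyond it up to rank 5000, and 11.1% beyond rank 20000. Pooled relaxed peaks below the IDR list had 13.0% of their promoter summits in shared windows, close to the 12.005% of bases, and a density ratio of 1.10. Each replicate showed the same contrast, with 48.9% shared beyond rank 100 up to rank 500 in replicate 1 and 48.8% in replicate 2, and 10.9% and 10.5% beyond rank 20000.

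**Figure D1:**
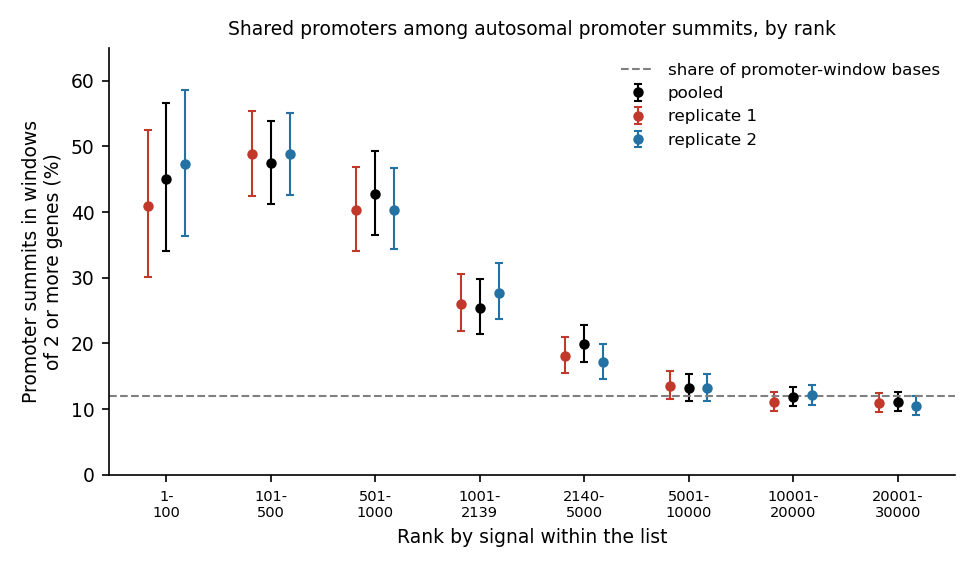
Percent of autosomal promoter summits that lay in windows of 2 or more genes, by rank of signal within the pooled list (black) and within each replicate (red and blue), with Wilson 95% intervals. The dashed line is the 12.005% of promoter-window bases that are shared; the points lie well above it up to rank 1000 and near it beyond rank 10000.

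Shared windows contain more sequence close to a gene start than single-gene windows do, so densities were also compared at equal distance from the nearest start. Up to 100 bp upstream, shared windows held 269 summits per Mb, against 51.1 per Mb in single-gene windows, a ratio of 5.26. The density in shared windows was highest at 100 to 200 bp upstream, with 406 per Mb against 95.7 per Mb (ratio 4.24). At 200 to 300 bp the values were 255 and 83.5 per Mb (ratio 3.06). The ratio was 2.08 at 300 to 500 bp and 2.01 at 500 to 1000 bp. Over these 5 distances the ratios were 5.13, 4.03, 3.24, 2.52 and 1.93 in replicate 1, and 5.09, 4.31, 3.39, 2.64 and 2.19 in replicate 2.

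The 346 peaks fell into 290 at head-to-head pairs, 28 at same-strand neighbours, 1 at a pair whose starts face each other and 27 in windows of 3 or more genes. All 27 of the last class had genes on both strands, 26 with 3 genes and 1 with 4. Per Mb of the sequence each class covers, there were 278 summits in windows of 3 or more genes, 155 in head-to-head windows and 122 in same-strand windows, which is 7.48, 4.18 and 3.29 times the single-gene density. The windows of 3 or more genes covered only 0.0973 Mb. The split between classes depended on the window: there were 6 same-strand peaks and 6 peaks of 3 or more genes with windows of 500 bp, and 74 and 129 with 2000 bp.

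Signal, the authors' deposited value per peak, was used only to describe and rank peaks within a list. Its median was 241 for the members (quartiles 175 and 416), against 184 for single-gene promoter peaks (quartiles 141 and 306) and 181 for all autosomal IDR peaks. The classes were alike in the middle of their ranges, with medians of 241 at head-to-head pairs, 261 at same-strand neighbours and 228 in windows of 3 or more genes. The highest member had a signal of 1572, below the highest single-gene peak at 1967. Among the 1069 highest IDR peaks were 73.4% of the members, against 52.1% of the single-gene promoter peaks.

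**Figure D2:**
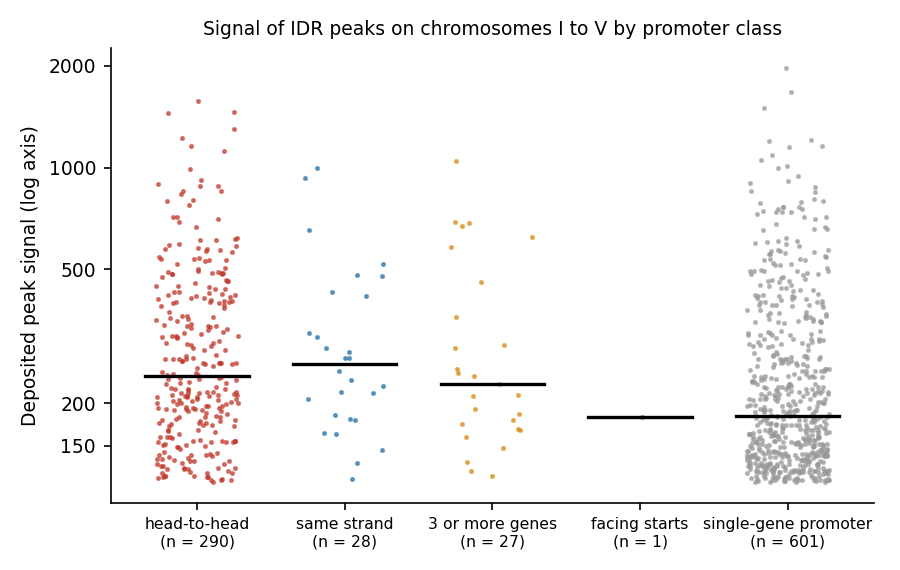
Deposited peak signal (log axis) of autosomal IDR peaks by promoter class, with 1 point per peak and a black bar at the class median. The medians of the 3 larger shared classes lie between 228 and 261 and that of single-gene promoters at 184, with wide overlap.

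Most members were found in each replicate. A summit within 100 bp among the 2139 highest peaks of both replicates was found for 293 of 346 members, or 84.7% (Wilson 95% interval 80.5 to 88.1%), where the background over all autosomal IDR peaks was 68.7% and single-gene promoter peaks reached 69.6%. Members had higher signal than those peaks, and the part of signal in this difference was not tested. Replicate 1 alone matched 20 members, replicate 2 alone 28, and neither matched 5. By class, 245 head-to-head peaks (84.5%), 22 same-strand peaks (78.6%), 25 peaks of 3 or more genes (92.6%) and the facing-start peak were matched in both. The median signal of the members was 124 in replicate 1 and 121 in replicate 2, and the median rank was 682 and 607.5. The median for single-gene promoter peaks was 97.8 in replicate 1 and 94.4 in replicate 2.

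**Figure D3:**
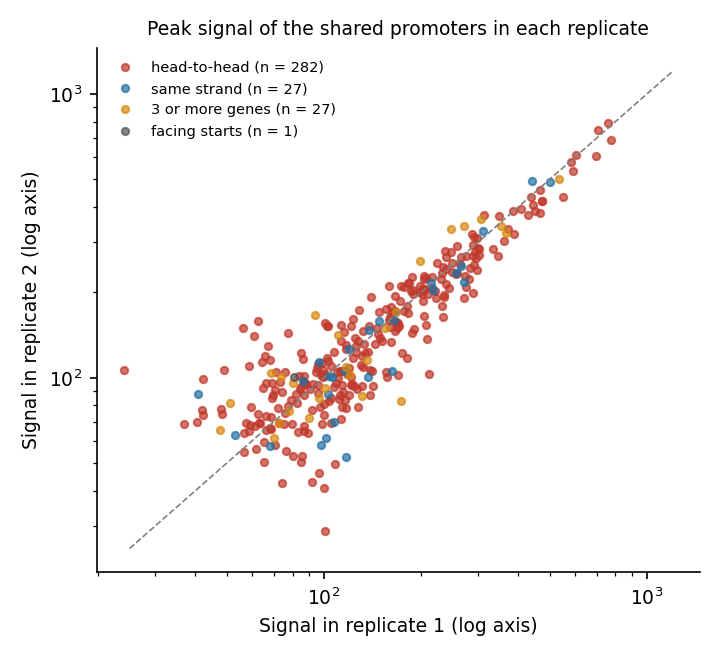
Signal of each member in replicate 1 against replicate 2 (log axes), for the 337 members with a summit within 100 bp in both full replicate lists, coloured by class. The dashed line is equality; the points follow it at high signal and spread more widely below a signal of about 100.

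Of the head-to-head pairs, F25H9.6 (WBGene00009138) and F25H9.7 (WBGene00009139) on chromosome V carried the strongest peak, with a summit at chrV:13468385. RefSeq names their products as a flavoprotein domain protein and succinate dehydrogenase assembly factor 3. Signal was 761 in replicate 1 and 791 in replicate 2 (ranks 6 and 3), and 1572 pooled. The starts are only 15 bp apart, and the peak covered both. The next was at K01G5.10 and tasp-1 on chromosome III, where tasp-1 encodes a homologue of the protease TASPase, at chrIII:10759252. Here the signal was 776 in replicate 1, 690 in replicate 2 and 1464 pooled, and the summit lay 55 bp upstream of tasp-1 and 730 bp upstream of K01G5.10.

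Ribosomal protein genes held 2 of the next places. The peak of rpl-20 and Y17G9B.5 on chromosome IV had a signal of 705 in replicate 1, 748 in replicate 2 and 1449.6 pooled, 297 bp upstream of rpl-20 and 165 bp upstream of its partner, which RefSeq names as a mitochondrial Toll-pathway intermediate. The peak of rpl-15 and K11H12.8 had 604, 612 and 1222 in the same order. Between them ranked nhl-2, a gene of the B box protein family, and tag-340 on chromosome III, with 695 in replicate 1, 606 in replicate 2 and 1300.1 pooled, whose summit was far from both starts, at 849 and 574 bp upstream. Replicate ranks of these 3 peaks were 5 to 13, so each was among the strongest in either replicate.

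The remaining strongest head-to-head promoters joined genes of varied roles. F56G4.6 and wbp-4 (pooled signal 1155) were followed by fib-1 and mut-15, where fib-1 encodes the nucleolar rRNA methyltransferase fibrillarin and mut-15 acts in small RNA amplification. That peak had a signal of 591 in replicate 1 and 535 in replicate 2. Y22D7AL.10 and hsp-60 encode the small and the large partner of the mitochondrial chaperonin and share this promoter, with signal 550.4 in replicate 1, 434 in replicate 2 and 988 pooled. The summit lay 204 bp upstream of Y22D7AL.10 and 609 bp upstream of hsp-60. C56A3.6 and cav-2 (caveolin) had a pooled signal of 917, vps-51 and lin-35 had 891, ahsa-1 and C01G10.7 had 884, and rps-19 and hsr-9 had 881. lin-35 encodes the retinoblastoma-like repressor, and ahsa-1 an activator of the Hsp90 ATPase. All of these were matched in both replicates.

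Annotated pairs gave the background for these counts. The autosomes hold 2833 head-to-head pairs with starts up to 2000 bp apart whose windows overlap, and 334 of them, or 11.8% (Wilson 95% interval 10.7 to 13.0%), had an IDR summit in the stretch both windows cover. Same-strand neighbours had one in 57 of 845 pairs (6.75%) and facing starts in 1 of 49 (2.04%), and the background over all 3727 pairs was 10.5%. Pairs that lie inside windows of 3 or more genes are counted here too. By the distance between head-to-head starts, the share was 11.98% under 200 bp, 19.9% from 200 to under 400 bp, 19.7% from 400 to under 600 bp, 15.4% from 600 to under 1000 bp and 3.66% from 1000 bp. The stretch that both windows cover is shorter at the shortest and at the longest distances than between them. It came to 0.129 Mb over 242 pairs under 200 bp and 0.690 Mb over 628 pairs from 600 to under 1000 bp. From 1000 bp it was 0.575 Mb over 1120 pairs. Per Mb of common sequence the order was 224, 289, 227, 149 and 73.0 summits.

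In 11 head-to-head pairs the common stretch held 2 IDR summits. The 5 of highest signal were fib-1 and mut-15 (1119.65 and 223, 206 bp apart), C56A3.6 and cav-2 (917 and 125), F29B9.11 and jmjd-1.2 (851 and 191), tim-1 and Y75B8A.23 (435 and 120.2), and rict-1 and gfm-1 (359 and 143). The signals were closer in others of the 11, such as mtx-1 and dnj-12 (317 and 272) and czw-1 and F20D12.12 (187 and 151), named after their values were seen. F29B9.11 encodes a cytochrome c oxidase subunit and jmjd-1.2 a histone demethylase. The products of gfm-1 and tim-1 are mitochondrial elongation factor G and the timeless homologue.

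Head-to-head summits lay between the starts in 270 of 290 cases. The starts of bound pairs were a median of 503.5 bp apart (range 12 to 1863 bp), against 785 bp over annotated head-to-head pairs. Both windows must hold the summit, and they share less sequence at the longest distances and also at the shortest. The rule therefore has a part in this difference. With upstream positions written as negative, the median summit was at -148 bp from the nearer start (quartiles -223 and -60.5) and -345 bp from the farther one. It was within 300 bp of both starts in 117 peaks, of 1 start in 142 and of neither in 31. Members had the nearer start within 300 bp in 89.3% of head-to-head cases, against 57.4% of single-gene promoter summits, whose median position was -260 bp; with 2 starts the nearer one is closer by construction. The nearer start was the minus-strand one in 136 and the plus-strand one in 154. When the interval was cut into 3 equal parts, 125 of the 270 summits (46.3%) were in the middle part. A total of 268 head-to-head summits lay between genes, 17 in untranslated exons, 3 in coding exons and 2 in introns.

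**Figure D4:**
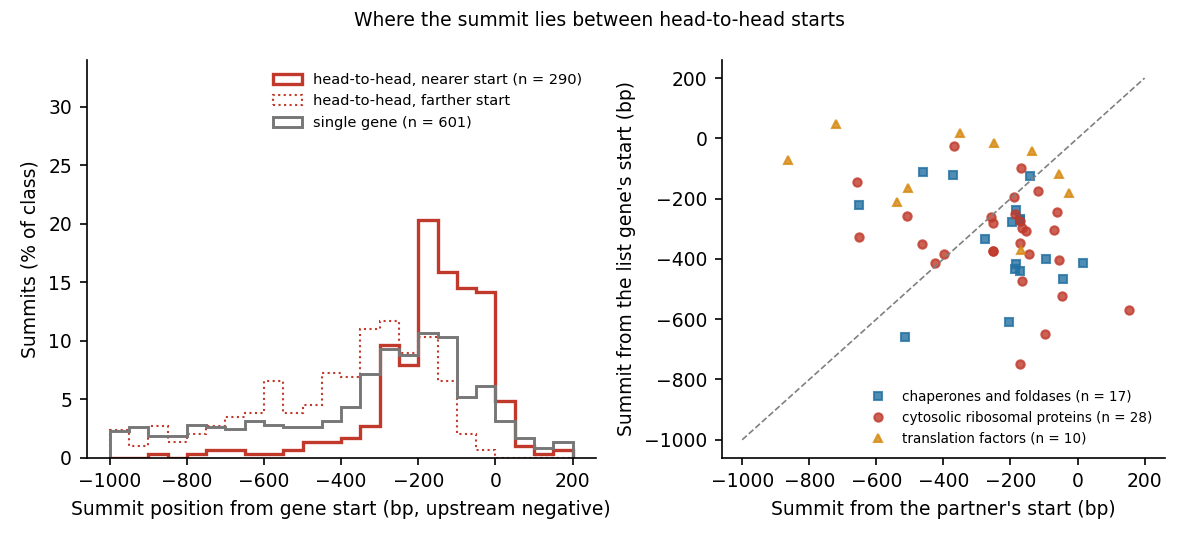
Left, summit position relative to the nearer (solid red) and farther (dotted red) start of head-to-head pairs and to the start of single-gene promoters (grey), as percent of each class in bins of 50 bp. Right, distance of the summit from the list gene's start against that from its partner's start, with the dashed line at equal distance; most ribosomal protein and chaperone pairs lie below the line, with the summit nearer the partner.

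The gene names of the pairs were grouped by family, from lists drawn up by name pattern. A peak was counted for the list of each of its genes, so the lists are not independent of each other. Cytosolic ribosomal protein genes had the highest share: 37 of the 79 autosomal genes, or 46.8% (Wilson 95% interval 36.2 to 57.7%), had a shared promoter peak, where 4.05% of all autosomal genes did. Many of them are in head-to-head pairs at all (65.8%, against 30.1% of all autosomal genes). Of those in such pairs, 57.7% had a member peak of the head-to-head class, against 10.7% over all genes in pairs. The strongest were rpl-20, rpl-15 and rps-19. The pair rps-10 and rpl-24.1 had both genes on the list, with a signal of only 155, and the median over the 34 peaks of the list was 257. The name pattern missed rpl-7A and rpl-36.A. With them, 38 of 81 genes (46.9%) had a member peak, rpl-7A sharing with set-21 a peak of signal 303 in replicate 1, 284 in replicate 2 and 587 pooled.

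Several other lists had shares whose intervals lay above the all-gene share. Chaperones and foldases had 22 of 91 genes (24.2%), led by hsp-60, cct-8 (a subunit of the cytosolic chaperonin, signal 794) and dnj-13 (589). Translation factors had 9 of 42 (21.4%), led by iff-2 (854), eef-1A.1 (569) and eef-1G (491). Splicing factors had 13 of 63 (20.6%), led by snr-1 (705), prp-19 (673) and rsp-2 (255), and the pair rsp-2 and rsp-1 had both genes on the list. Chromatin regulators had 15 of 74 (20.3%), led by lin-35 (891), the demethylase gene jmjd-1.2 (851) and lin-54 (837), which encodes a DNA-binding subunit of the DREAM complex. The lin-54 peak was also that of the ribosomal protein gene rpl-12, with its summit 26 bp upstream of rpl-12 and 367 bp upstream of lin-54. Of the chromatin genes in head-to-head pairs, 57.7% had a member peak of the head-to-head class, the same share as for ribosomal proteins.

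Ribosome biogenesis genes had 7 of 38 (18.4%; fib-1 at 1119.65, rbd-1 at 398, exos-9 at 323) and oxidative phosphorylation genes 7 of 40 (17.5%; atp-1 at 615, mev-1 at 271, atp-5 at 229.5). Vesicle traffic genes had 17 of 99 (17.2%, sec-61.G at 933, vps-51 at 891, snx-13 at 705), and DNA replication and repair genes 9 of 56 (16.07%, rfc-4 at 569, pri-2 at 383, pola-1 at 355). The vps-51 peak was also that of lin-35, the snx-13 peak that of snr-1 and the rfc-4 peak that of eef-1A.1. The mitochondrial import list had 3 of 18 genes (16.7%), of which timm-23 (202) and tomm-7 (126) encode import subunits while tim-1, taken in by its name, is the timeless homologue; with ddp-1 in place of tim-1 and the unrelated pam-1 left out it had 3 of 17 (17.6%). The share was 15.2% for the proteasome (5 of 33, pas-1 at 517), 13.2% for RNA polymerases and general factors (10 of 76, rpoa-12 at 517) and 9.72% for the ubiquitin pathway (7 of 72, ubql-1 at 351). Such shares also depend on how many genes of a list are in head-to-head pairs. Of the proteasome genes, 72.7% were in such pairs, and 16.7% of these had a member peak of the head-to-head class, against 10.7% over all genes in pairs. For 4 further lists the interval contained the all-gene share. These were aminoacyl-tRNA synthetases (3 of 32, 9.38%, interval 3.24 to 24.2%; ears-2 at 429), mitochondrial ribosomal proteins (6 of 70, 8.57%, interval 3.99 to 17.5%; mrps-7 at 412), the V-ATPase (1 of 18, 5.56%, interval 0.988 to 25.8%; vha-8 at 209) and cell cycle regulators (2 of 45, 4.44%, interval 1.23 to 14.8%; mdf-2 at 245, bub-1 at 221).

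Chemoreceptors, nuclear receptors and the F-box and lectin list had shares whose intervals lay below the all-gene share. Chemoreceptors had 2 of 1280 genes (0.156%): srh-16 at 486, and sri-5 at 362, which shares its promoter with the splicing gene rsr-1. The summit of the sri-5 peak lay 250 bp upstream of sri-5 and 482 bp upstream of rsr-1. Nuclear receptors had 2 of 246 (0.813%; nhr-47 at 427, nhr-142 at 263) and the F-box and C-type lectin list 7 of 615 (1.14%, with clec-62 and clec-63 in 1 pair at 136). That list also took in MATH and BATH domain genes, bath-42 and bath-36 among its 7. Without them it had 5 of 542 (0.923%). These low shares are for shared promoters, and 17.9% of nuclear receptor genes were in head-to-head pairs, against 30.1% of all autosomal genes. A single-gene promoter peak was found at 14 of 246 nuclear receptor genes (5.69%), against 3.31% of all autosomal genes. It was found at 1.17% of chemoreceptors and 0.813% of the F-box and lectin list. The intervals of homeobox genes (1 of 72, 1.39%, interval 0.246 to 7.46%; ceh-38 at 387) and of collagens, which build the cuticle (4 of 145, 2.76%, interval 1.08 to 6.88%; col-38 at 338), contained the all-gene share. Genes with clone-style names only had 224 of 7676 (2.92%, interval 2.56 to 3.32%), and this interval also lay below the all-gene share.

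**Figure D5:**
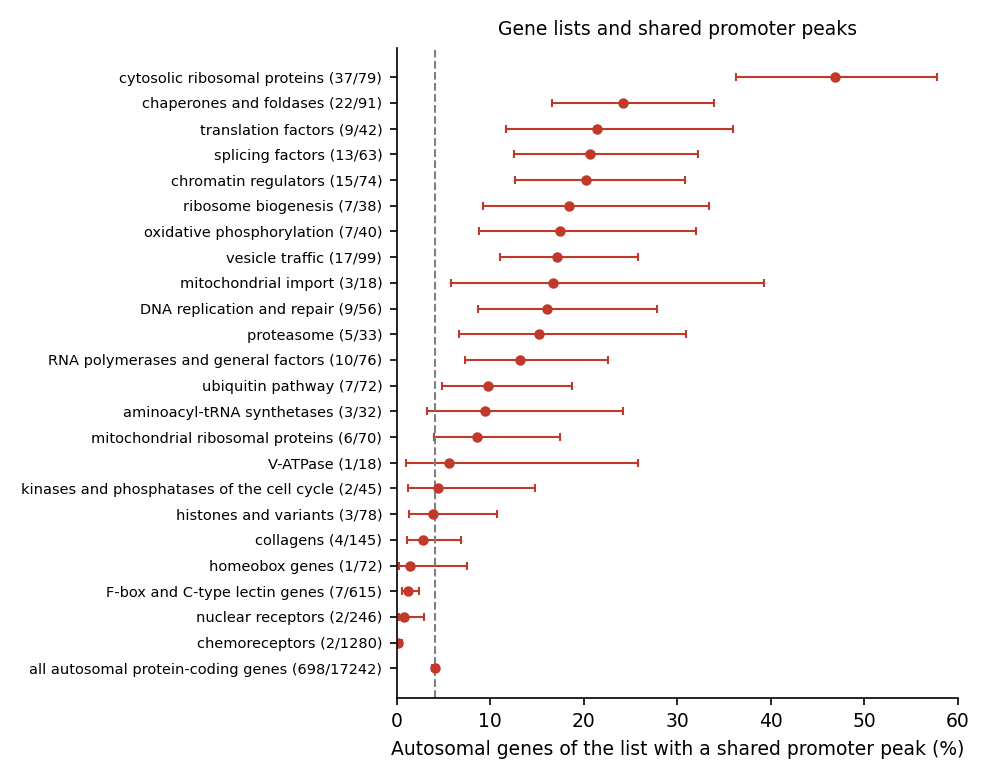
Percent of the autosomal genes of each list that had a shared promoter peak, with Wilson 95% intervals and the counts in brackets. The dashed line marks the 4.05% of all autosomal protein-coding genes; ribosomal proteins reach 46.8% and chemoreceptors 0.156%.

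Histone genes are often arranged head-to-head, and few of them had a peak there. They had the highest share of genes in head-to-head pairs of all the lists (65 of 78 genes, 83.3%), and 3 of 78 (3.85%, near the 4.05% of all genes) had a member peak: the variant gene htz-1 at 618 (334 in replicate 1 and 286 in replicate 2), and his-41 and his-35 at 122 (70.2 in replicate 1 and 61.2 in replicate 2). Of the histone genes in head-to-head pairs, 1.54% (1 of 65, htz-1) had a member peak of the head-to-head class, against 10.7% over all genes in such pairs. For chemoreceptors this share was 0.680%. The histone share leaves out his-41 and his-35, which are a head-to-head pair but whose summit lay in windows of 3 or more genes. Of 34 pairs made of histone genes alone, a median of 273 bp apart, 1 had an IDR summit, and 5 had a pooled relaxed summit, 4 in replicate 1 and 5 in replicate 2. Most histone genes are near-identical copies, so reads from them may not be placed uniquely, and the handling of such reads was not stated in the labels or notes. The same limit may apply to the small heat-shock genes, chosen for mention after their values were seen. How alike their copies are was not examined. hsp-16.2 and hsp-16.41 shared a peak of signal 163 at rank 1248 (82.6 in replicate 1 and 81.3 in replicate 2), while the pair hsp-16.1 and hsp-16.48 had 0 pooled peaks. The part of repeated sequence in these counts was not tested.

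Where 1 gene of a head-to-head pair was a ribosomal protein gene, the summit tended to lie farther from that gene. In 20 of 28 such pairs, or 20 of 29 with rpl-7A, it was nearer to the partner's start; at rpl-7A it lay -70 bp from that gene and -184 bp from set-21. Its median position was -318 bp from the ribosomal protein start (quartiles -389 and -257, upstream being negative) and -172.5 bp from the partner's start (-286 and -138.5). At the 12 ribosomal protein genes with a single-gene promoter peak the median was -286 bp (-317.5 and -256). At chaperone genes 13 of 17 summits were nearer the partner, with medians of -334 bp from the chaperone start and -183 bp from the partner's. The pair mtx-1 and dnj-12 counts here once for each of its summits, which lay nearer to opposite genes. Y22D7AL.10 counts as the partner of hsp-60, because the name pattern did not take it in as a chaperonin gene. Translation factors had the other order: 7 of 10 summits were nearer to the factor, with medians of -94.5 bp from its start and -299.5 bp from the partner's. Here the pair rict-1 and gfm-1 counts once for each of its summits. Other lists were mixed: the summit was nearer the list gene in 6 of 9 for DNA replication and repair, 6 of 16 for chromatin regulators and 3 of 6 for oxidative phosphorylation. The lists named here are small and were picked after their values were seen. Annotated starts may be the trans-spliced ends of transcripts, and the part of this in the distances was not tested.

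At the 28 same-strand neighbours the summit sat in front of the first gene. It was upstream of both starts in 26, at a median of -144 bp from the first gene's start and -779 bp from the second gene's. A member must lie in both windows, and the first gene's window ends 200 bp past its start. The starts were a median of 610.5 bp apart, so this position follows in large part from the rule. In 19 of the 28 the end of the first gene and the start of the second were 39 to 150 bp apart, and in 9 the genes overlapped. Genes of operons lie that close, but no operon annotation was used here, so the share of operons was not tested. Since the window reaches 1000 bp upstream of each start, a summit in front of a short first gene counts as shared by this rule.

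egl-30, encoding a G protein alpha subunit, and the overlapping C53H9.4 on chromosome I had the strongest same-strand peak, with signal 502 in replicate 1, 489 in replicate 2 and 995 pooled. sec-61.G, for the gamma subunit of the Sec61 protein channel, was followed after 114 bp by the phosphomevalonate kinase gene F32D8.13, with 440 in replicate 1, 493 in replicate 2 and 933 pooled. Its summit was 233 bp upstream of sec-61.G and 833 bp upstream of F32D8.13. rps-28 and Y41D4B.4 had 310.0 in replicate 1, 330.2 in replicate 2 and 654 pooled, with a gap of 112 bp. All 3 ranked in the highest 106 of each replicate.

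The next same-strand pairs by signal were rpoa-12 with the proteasome gene pas-1 (pooled signal 517, gap 106 bp), ddp-1 of mitochondrial import with ttc-7 (476, gap 47 bp), the RNA polymerase II subunit gene rpb-11 with W01G7.4 (429, gap 114 bp), and F10E9.11 with the centriole gene sas-4 (416, gap 89 bp). pqn-51 and K11D12.14, which overlap, had 481. The only facing pair, Y54E10BR.2 and rpb-7 on chromosome I, had starts 3 bp apart and a signal of 80.7 in replicate 1, 100.3 in replicate 2 and 182 pooled. Its summit lay in an untranslated exon, 4 bp inside Y54E10BR.2 and 1 bp upstream of rpb-7.

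Windows of 3 or more genes included cux-7, C07H6.2 and the DNA ligase IV gene lig-4 on chromosome III, with signal 534 in replicate 1, 503 in replicate 2 and 1047 pooled. The small GTPase gene rab-7, with W03C9.5 and mex-1, had 366 in replicate 1, 324 in replicate 2 and 689.6 pooled. The peak of abcf-2, T27E9.2 and the ADP/ATP translocase gene ant-1.1 had a pooled signal of 683, and that of prp-19, K10D2.5 and the anaphase-promoting complex gene emb-1 had 673. All 4 were matched in both replicates. Chromosome III held 14 of the 27 such peaks and 2640 of the 17242 autosomal protein-coding genes. How much of the sequence in windows of 3 or more genes lies on III was not counted.

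Chromosome III also had the largest share of members among its promoter summits, 44.2% (84 peaks), followed by I with 41.9% (78), IV with 36.3% (58), II with 32.2% (57) and V with 29.5% (69). Of annotated head-to-head pairs, 18.7% had an IDR summit on III, 14.004% on I, 10.1% on IV, 9.89% on II and 8.65% on V. Members close to the window edge were K07C5.13 and K07C5.3 (3 bp inside, signal 179) and tag-281 and tag-280 (12 bp inside, 273). The IDR summits nearest to the outside were at kars-1 and kat-1 (4 bp outside, 393) and usp-39 and nep-18 (11 bp outside, 190.04).

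Noncoding RNA genes near the members were counted beside those near single-gene promoter peaks. A snoRNA or snRNA gene was within 300 bp of the summit in 6 of 346 (1.73%), against 4.99% of single-gene promoter peaks. The other kinds differed little from single-gene promoter peaks. A tRNA gene was near 3 members (0.867%, against 0.998%) and a miRNA gene near 1 (0.289%, against 0 of 601 peaks). Another noncoding RNA gene was near 43 (12.4%, against 12.8% of single-gene promoter peaks).

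Sequence words known for Pax proteins differed little between shared and single-gene promoter summits. Both strands were searched from 100 bp before to 100 bp after the summit. GTCACG, part of the paired domain site, was present in 7.23% of members, 8.15% of single-gene promoter peaks and 4.73% of the same length centred 150 bp upstream of all autosomal gene starts. The longer GTCACGC, which contains it, was in 1.45% (5 members), 2.00% (12 peaks) and 0.893%. TAAT and ATTA separated by 3 bases or by 2 are both palindromic homeodomain sites. The form with 3 bases between was in 0.867%, 1.33% and 1.37%, and that with 2 bases in 1.16%, 1.16% and 1.37%. ATTA alone was in 77.5%, 74.9% and 89.3%. A match is a description of the letters and not a bound site.

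Of the members with a Pax word within 50 bp of the summit, the 3 shown hold GTCACGC or the palindrome with 3 bases between, with the word in capitals. The capitals also mark the repeat GAGAGA in the last 2, the word TTTCAG in the first and the 8-base word GCGCTCCA in the last. The first holds the homeodomain palindrome with 3 bases between, and the others GTCACGC on the minus strand.
F55A11.1/syx-5 summit, chrV:11764513-11764613: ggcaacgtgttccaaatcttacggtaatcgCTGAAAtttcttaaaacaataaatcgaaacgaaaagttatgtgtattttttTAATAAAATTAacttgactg
F59A6.11/citk-2 summit, chrII:4999282-4999382: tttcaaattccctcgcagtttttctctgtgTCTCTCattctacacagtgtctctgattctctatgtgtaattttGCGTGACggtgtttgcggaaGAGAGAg
gmn-1/Y75B8A.18/Y75B8A.19 summit, chrIII:12226235-12226335: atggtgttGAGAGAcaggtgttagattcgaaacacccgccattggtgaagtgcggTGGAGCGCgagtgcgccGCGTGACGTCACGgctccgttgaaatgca
The peak of F55A11.1 and syx-5, a syntaxin gene, had signal 415, that of F59A6.11 and citk-2 had 301.5, and that of gmn-1 (the geminin gene) with its neighbours had 167.

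Of the other words searched, GATAAG was in 3.76% of members, 9.98% of single-gene promoter peaks and 11.6% of promoters, and GAGAGA in 23.4%, 30.4% and 15.3%. CTGCGTCTC was in 7.23%, 9.48% and 2.48%, GGGCGG in 10.7%, 10.3% and 5.50%, CACGTG in 4.05%, 6.99% and 4.05%, TATAAA in 15.0%, 16.14% and 25.9%, and TTTCAG, the splice acceptor word, in 25.4%, 23.3% and 29.4%. GC content over the same window was 40.3% ± 6.78 in members (SD, n = 346 peaks), against 41.0% ± 7.36 at single-gene promoter peaks (SD, n = 601 peaks).

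A count of all 8-base words within 50 bp of the members' summits gave 6 present in at least 8% of them. These words were found in the members after their data were seen, so their share in members is a description and supports nothing; the single-gene promoters were not used to find them. GCGCTCCA was in 37 members (10.7%), against 14 single-gene promoter peaks (2.33%) and 0.534% of all promoters. CTAGGCCA was in 30 members (8.67%, against 4.99% and 0.545%) and AAACGCGC in 29 (8.38%, against 5.99% and 0.655%). AGGAGTAC was in 28 (8.09%, against 2.83% and 0.389%), CGAGACCC in 28 (8.09%, against 2.66% and 0.644%) and GAGGAGTA in 28 (8.09%, against 3.00% and 0.360%); AGGAGTAC and GAGGAGTA overlap. In all, 130 members (37.6%) held at least 1 of the 6. Their median signal was 263, against 223 for members without.

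GCGCTCCA lay a median of 25 bp from the summit in the 40 members that held it up to 100 bp away. The word was chosen within 50 bp of these summits, so a short distance follows from the choice and does not show centring. GCGCTCCA was at the rpl-20, fib-1 and rpl-12 promoters, and its reverse complement stands in capitals in the rpl-20 and fib-1 sequences. The other words are shown at the strongest of their members that passed the same limits on untranslated bases and chromosome; capitals mark CTAGGCCA, AAACGCGC, AGGAGTAC with GAGGAGTA, or CGAGACCC, and GAGAGA.
C56A3.6/cav-2 summit, chrV:13556811-13556911: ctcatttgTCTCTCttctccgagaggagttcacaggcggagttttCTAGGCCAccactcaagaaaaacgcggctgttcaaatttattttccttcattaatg
snx-13/snr-1 summit, chrIV:17087572-17087672: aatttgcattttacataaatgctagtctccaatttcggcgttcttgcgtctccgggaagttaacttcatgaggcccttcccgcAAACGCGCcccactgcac
nasp-2/C50B6.3 summit, chrV:13313197-13313297: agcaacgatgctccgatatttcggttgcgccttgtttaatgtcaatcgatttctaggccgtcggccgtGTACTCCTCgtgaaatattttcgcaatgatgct
wapl-1/htz-1 summit, chrIV:4445863-4445963: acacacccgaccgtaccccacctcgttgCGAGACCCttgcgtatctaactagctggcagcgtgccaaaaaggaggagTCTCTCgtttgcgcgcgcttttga
cav-2 encodes a caveolin, snr-1 an Sm protein of the spliceosome, nasp-2 a tetratricopeptide histone chaperone relative and htz-1 the variant histone H2A.Z, which shares its promoter with the cohesin regulator gene wapl-1. The signals of these peaks were 917, 705, 772 and 618.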

How the data were processed

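Whole starved L1 larvae were measured by anti-GFP ChIP-seq in 2 biological replicates, which form 1 group. The deposited files are peak lists in narrowPeak layout on ce11, per the authors' accompanying notes: 1 IDR-thresholded list of 2139 peaks and relaxed lists of 30000 peaks, pooled and per replicate, made from the alignments with a control alignment. Not given in the sources used here were the caller, the scale of the signal and the threshold. The signal per peak was deposited by the authors and was compared only between peaks of 1 list. The deposited −log10 q-values were read and not used further. The IDR list equals the 2139 pooled peaks of highest signal, so a peak on it need not be found in each replicate.

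Genes came from Ensembl release 115 for WBcel235 (ce11), and bases and product names from RefSeq. Summits were counted from 1. A peak was matched in a replicate when a summit lay within 100 bp. Motifs were searched exactly, on both strands, and 8-base words up to 50 bp from the summit. Intervals are Wilson 95% intervals and cover counting error only. Scripts used Python 3.11.15, pandas 2.3.3, numpy 2.4.6, scipy 1.17.1 and matplotlib 3.10.9 and were checked on simulated data. No test was made over peaks.

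The members and lists were chosen with earlier results of these data known. The text names the genes of the 12 head-to-head, 8 same-strand, 4 facing-start (only 1 was found) and 4 multi-gene members of highest signal, up to 3 genes per list, members with all genes on 1 list, the 5 strongest pairs with 2 summits, and 2 peaks on each side of the window edge; names beyond that were chosen after their values were seen. Alternatives changed the window, the gene starts, the peaks used, the matching distance and the replicate.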

Additional observations from a re-analysis of the deposited data

How the results depend on the processing

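No paired analysis was possible because the 2 replicates form 1 group. Of the 76 alternatives over 15 results, 51 stayed within the limits set for each value and 25 moved. With windows of 500 bp and 2000 bp upstream there were 6 and 74 same-strand peaks and 6 and 129 peaks of 3 or more genes, shared windows took 29.6% and 44.5% of promoter summits, the density ratio was 5.34 and 3.21, the signal ratio of members to single-gene peaks 1.26 and 1.27 (1.31 as reported), and the summit's median position from the nearer start was -126 and -171 bp. In the higher-signal 1069 IDR peaks the share was 44.8%, the density ratio 5.95, the signal ratio 1.06, the share matched in both replicates 98.0% and the position -165.5 bp. With 1 replicate left out, the density ratio was 4.18 to 4.403, the signal ratio 1.25 to 1.28, the share matched 79.0 to 86.3% (in the other replicate), the position -155 to -145.5 bp and the chemoreceptor genes 3 to 4. Matching within 50 bp gave 77.5%, and matching to all 30000 peaks 97.4%. Correcting the names on the ribosomal protein list gave 38 genes in place of 37. This correction, the density ratios under other settings and the 8-base word alternatives were chosen after seeing the data. Depth is unknown, so it sets no floor here.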
